A study of Mus musculus with 6 samples.

Results

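The cytosolic ribosomal protein genes encode the proteins that, together with ribosomal RNA, build the large and the small subunit of the ribosome that translates messenger RNA in the cytoplasm. Their rows were taken from the count table by symbol: Rpl, Rplp or Rps with a number and at most a short suffix, and Rpsa, leaving out rows marked as pseudogenes with -ps. This gave 84 of the 23420 genes of the table, 51 of the large and 33 of the small subunit. The rule itself used names only, but the members were chosen with earlier results of these data known. The 6 libraries came from mesenchymal stromal cells (MSCs) grown from flushed femurs of young adult female C57BL/6 mice and transduced with a retroviral construct that carried eGFP as its marker. The 3 libraries labelled MSC-TPr received the construct coding for the thymoproteasome (TPr) subunits β1i (Psmb9), β2i (Psmb10) and β5t (Psmb11), and the 3 libraries labelled Ctl MSC received the empty construct. The comparison asks how TPr expression changed the transcriptional profile of the cells. The sources do not say whether the libraries of a group came from separate cultures, so p-values measure the spread between these libraries, which may be technical.

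Each ribosome holds in general 1 copy of each of its proteins, so mammalian cells keep the mRNAs of these genes at high levels and control them largely together. Most of these mRNAs begin at a C followed by a run of pyrimidines (C and T in the DNA), the terminal oligopyrimidine or TOP motif, through which the mTOR kinase and the RNA-binding protein Larp1 control their translation. Some members have a paralogue, such as Rpl22 and Rpl22l1, and paralogues can take each other's place in the ribosome. Mouse ribosomal protein genes have left many processed pseudogenes in the genome, and reads that align to a gene and to a pseudogene equally well may not be counted on either.

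The libraries held 16158756 to 22158887 reads counted on genes, which left 13.8% to 20.8% of the listed reads in rows of no gene, 5.89% to 8.92% because their alignment was not unique. Levels are given as CPM, counts scaled by the TMM-adjusted library size, and 3 reads, taken as the limit of detection, corresponded to 0.135 to 0.186 CPM, for counting error only. The transduced genes did not check the labels. Psmb11 had 2, 4 and 2 reads in Ctl MSC 1 to 3 and 4, 6 and 1 in MSC-TPr 1 to 3. Neither Psmb9 nor Psmb10 was higher in every MSC-TPr library than in every Ctl MSC library. Psmb10 had 27.8, 8.81 and 8.38 CPM in Ctl MSC 1 to 3 and 8.97, 17.3 and 15.2 in MSC-TPr 1 to 3. Psmb9 had 3.38, 0.801 and 0.827 CPM in Ctl MSC 1 to 3 and 0.554, 1.24 and 1.21 in MSC-TPr 1 to 3. Each was higher in Ctl MSC 1, MSC-TPr 2 and MSC-TPr 3 than in the other libraries. Directions below are therefore directions between library labels. Of the 10 MSC markers, 9 were present and Thy1 had 0 or 1 read per library. Ptprc and Itgam, markers of leukocytes and macrophages, had at most 2 reads, and summed macrophage markers reached 1.81 to 14.2 CPM, with Cd68 at 17 to 256 reads and Csf1r at 0 to 18. Summed endothelial markers reached 0.725 to 2.99 CPM, with Tie1 at 0, and erythroid and lymphocyte markers at most 0.214 CPM. Ctl MSC 1 lay beside MSC-TPr 2 and 3 on the first principal component of all genes (−40.95 beside −50.27 and −49.36), and MSC-TPr 1 lay beside Ctl MSC 2 and 3 (40.5 beside 50.85 and 49.23). The mean level of 10 cell division genes split the libraries the same way, at 6.71 to 6.87 log2 CPM in Ctl MSC 1, MSC-TPr 2 and MSC-TPr 3 and at 3.42 to 3.50 in the others. On the second principal component of all genes the libraries stood by label. Its values were −48.86, −20.43 and −19.59 in Ctl MSC 1 to 3 and 49.1, 24.21 and 15.58 in MSC-TPr 1 to 3. Whether the labels of Ctl MSC 1 and MSC-TPr 1 were exchanged was not tested, and an exchange would change what every value over 6 libraries compares. Calls are therefore given over all 6 libraries and also without the library numbered 1 of each group.

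The start regions of the members were examined because the TOP motif lies there. In the RefSeq table (GRCm38.p6, the mm10 build), 63 members had a promoter entry that was used. A run of at least 6 C or T bases within 10 bases of the annotated start was found in 32 of them (50.8%), against 23.0% of 27025 genes, and in 20 of 39 large and 12 of 24 small subunit genes. CCGGAAG, the core bound by GABP and other ETS factors, stood on either strand between 250 bases before and 50 after the start in 26 members (41.3%) and in 9.93% of all genes. AAGATGGC, the YY1 motif, stood there in 6 members (9.52%) and in 3.19% of all genes. These shares are descriptions, and the last bases of CCGGAAG can also be the first of AAGATGGC. The following sequences, from 60 bases before to 20 after the annotated start and written 5′ to 3′, are those of the paralogues Rpl22 and Rpl22l1 and of other members described below, with the pyrimidine run in capitals where it reached 6 bases. Only the part of a run within 10 bases of the start was counted and capitalised.

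Rpl22, chr4:152325666-152325745, plus strand: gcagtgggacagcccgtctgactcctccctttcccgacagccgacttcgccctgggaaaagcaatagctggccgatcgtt
Rpl22l1, chr3:28805448-28805527, plus strand: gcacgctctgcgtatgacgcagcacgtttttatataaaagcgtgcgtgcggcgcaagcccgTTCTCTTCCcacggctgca
Rpl7a, chr2:26910747-26910826, plus strand: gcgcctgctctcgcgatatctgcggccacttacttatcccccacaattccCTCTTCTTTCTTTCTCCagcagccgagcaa
Rpl35, chr2:39005112-39005191, minus strand: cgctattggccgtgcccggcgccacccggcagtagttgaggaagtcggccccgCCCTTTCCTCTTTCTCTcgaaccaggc
Rps18, chr17:33955646-33955725, minus strand: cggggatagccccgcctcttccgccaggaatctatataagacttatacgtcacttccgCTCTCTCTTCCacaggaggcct
Rplp2, chr7:141447591-141447670, plus strand: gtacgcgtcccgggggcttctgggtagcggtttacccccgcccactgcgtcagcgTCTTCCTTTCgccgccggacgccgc
Rps2, chr17:24720003-24720082, plus strand: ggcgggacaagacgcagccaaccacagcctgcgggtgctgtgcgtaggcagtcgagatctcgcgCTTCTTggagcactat
Rpl7l1, chr17:46782637-46782716, minus strand: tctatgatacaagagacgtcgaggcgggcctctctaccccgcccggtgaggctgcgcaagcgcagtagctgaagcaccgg
Rpl41, chr10:128549149-128549228, minus strand: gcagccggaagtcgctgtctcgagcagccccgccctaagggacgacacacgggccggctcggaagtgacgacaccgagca

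Rpl22l1 carried a run of 9 bases and its paralogue Rpl22 none of 6. The longest runs in this set, 17 bases, were those of Rpl7a and Rpl35, followed by Rps18 with 11 and Rplp2 with 10. Neither Rpl7l1 nor Rpl41 had such a run at the annotated start, which says only that these letters are not in this window.

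Ribosomal protein genes took 6.57%, 7.46% and 8.06% of the counted reads in Ctl MSC 1, 2 and 3, against 8.47%, 7.74% and 6.64% in MSC-TPr 1, 2 and 3. The group means were 7.36% ± 0.750 (SD, n = 3) and 7.62% ± 0.922 (SD, n = 3), and the groups overlapped almost completely. The difference of 0.259 percentage points is smaller than the spread within either group, and it was −0.137 without Ctl MSC 1, −0.168 without MSC-TPr 1 and −0.564 without both. In bulk RNA, fewer cells with a high level and less RNA per cell cannot be told apart.

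**Figure D1:**
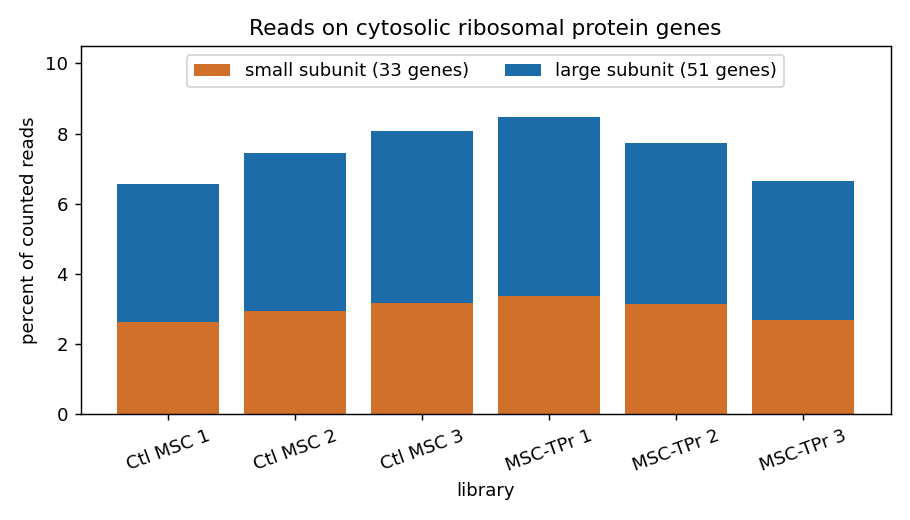
Percent of counted reads on ribosomal protein genes (y axis) in each of the 6 libraries (x axis), as bars starting at 0 with the small subunit below and the large subunit on top. The share lay between 6.57% and 8.47% and did not separate the library labels.

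The share on the large subunit ran from 3.95% to 5.10% and that on the small subunit from 2.62% to 3.37%, and the subunits moved together from library to library. There were 1.51, 1.54 and 1.54 large subunit reads for each small subunit read in Ctl MSC 1 to 3 and 1.52, 1.46 and 1.47 in MSC-TPr 1 to 3, with means of 1.53 ± 0.0158 and 1.48 ± 0.0304 (SD, n = 3). On the mean log2 CPM of the members, which gives each gene the same weight, the large subunit lay 0.121, 0.142 and 0.141 log2 units below the small subunit in Ctl MSC and 0.112, 0.119 and 0.116 below it in MSC-TPr. The difference between the labels thus had opposite signs on these scales and was small on both: MSC-TPr minus Ctl MSC came to −0.0481 log2 units for the ratio of summed reads and to 0.019 for the mean over genes. Per kilobase of transcript, the median member had 783.4 to 1165.5 CPM per kilobase in the large and 976.2 to 1225 in the small subunit, and the small subunit was ahead in each of the 6 libraries.

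Of the 84 members, 80 passed edgeR's filter on low counts, 48 of the large and 32 of the small subunit. The other 4, Rpl10l, Rpl3l, Rpl39l and Rps4y2, had 0 to 2 reads in every library. Rpl10l, Rpl3l and Rpl39l are the paralogues of Rpl10, Rpl3 and Rpl39, known from testis and muscle, and in these MSCs they stayed at or under the limit of detection while Rpl10 reached 1477 to 2145 CPM, Rpl3 1224 to 1507 and Rpl39 535.3 to 723.1. Levels of different members were compared per kilobase of the shortest coding transcript that matches a RefSeq entry. The median of the 80 members over the 6 libraries was 1031.5 CPM per kilobase, the middle of the distribution ran from 711.5 to 1472.2 (lower to upper quartile), and 70 members lay between 400 and 4000.

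The highest levels were those of Rps24 (3658 CPM per kilobase), Rps12 (2954), Rpl41 (2591), Rps2 (2495), Rplp0 (2487) and Rpl10 (2269). Rpl41 encodes a very short peptide of the large subunit at the subunit interface, Rps2 sits near the mRNA entry of the small subunit, and Rplp0 is the base of the stalk that recruits translation factors. The lowest were Rps27 (6.81), Rpl26 (16.4), Rpl34 (17.3), Rpl30 (21.7), Rpl7l1 (54.3) and Rpl22l1 (131). Rpl7l1 and Rpl22l1 are paralogues that accompany a more abundant gene, whereas Rps27, Rpl26, Rpl34 and Rpl30 encode constitutive ribosomal proteins. Rps15a and Rps20, at 134 and 241 CPM per kilobase, had gene models of 5179 and 3706 bases, which lowers a value per kilobase if shorter transcripts were present.

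The sequence that members share with other genes was measured as the percent of the 100-base stretches of each transcript that also occur in another annotated transcript. It was 98.4% for Rps27, 53.5% for Rpl30, 36.8% for Rpl26 and 31.0% for Rpl34. Over the 80 members the median was 41.3%, 34 members reached at least 50%, 6 had no shared stretch, and 72 shared stretches with an annotated pseudogene. Members with a high share also stood among the highest levels, such as Rpl10 and Rps12 in the plot of level against shared sequence. The pseudogene rows that the table lists took 0.00895% to 0.0130% of the counted reads, and of these Rpl34-ps1 had 57.9 to 88.9 CPM, above the 5.59 to 12.01 CPM of Rpl34 itself. The shared sequence of Rpl26 and Rpl34 was below the median of the members, and that of Rpl30 and Rps27 was above it. The counts of Rpl26, Rpl30, Rpl34 and Rps27 are treated as uncertain for their low level. What shared sequence contributes to that level was not tested. The median log2 fold change between labels was 0.10 among the 13 members with under 10% shared sequence and 0.11 among the 34 with at least 50%.

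**Figure D2:**
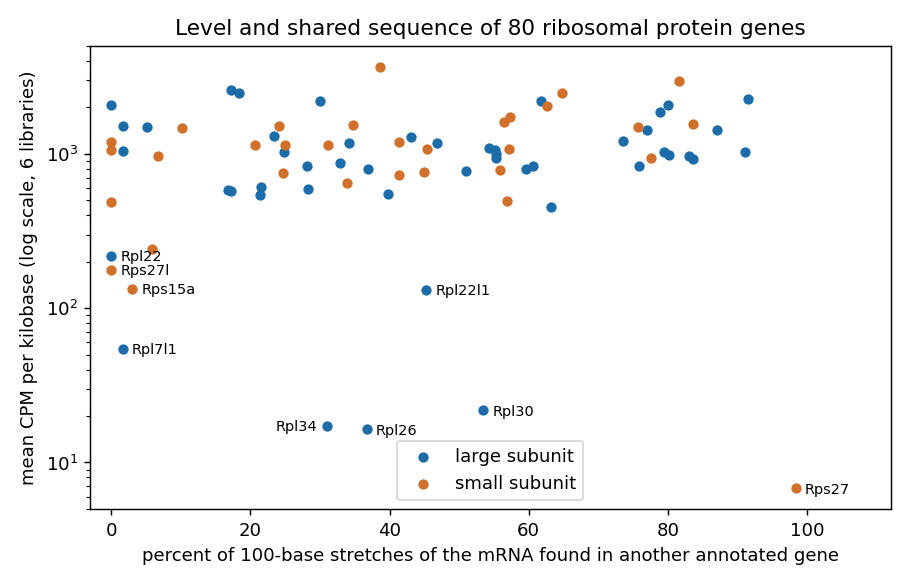
Mean level of each of the 80 tested members over 6 libraries (y axis, CPM per kilobase, log scale) against the percent of its 100-base stretches found in another annotated gene (x axis), coloured by subunit. Most members lie between 400 and 4000 at any share, and Rps27, Rpl26, Rpl34 and Rpl30 lie below 25.

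The levels of the members varied together between libraries. With each gene set against its own mean over the 6 libraries, the median member lay at −0.205, −0.038 and 0.098 log2 units in Ctl MSCs 1, 2 and 3 and at 0.179, 0.121 and −0.125 in MSC-TPr 1, 2 and 3. In Ctl MSC 1, 6 of the 80 members were above their own mean, against 28 in Ctl MSC 2, 61 in Ctl MSC 3, 63 in MSC-TPr 1, 64 in MSC-TPr 2 and 17 in MSC-TPr 3. Libraries of each label thus stood on either side of the mean, and so did libraries with a high level of cell division genes. The first principal component of the members alone held 51.9% of their variance, and that of all genes tested held 58.5% of theirs. The ratio of the highest to the lowest library was 1.5 for the median member and 1.93 for the median of all 11974 genes tested.

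**Figure D3:**
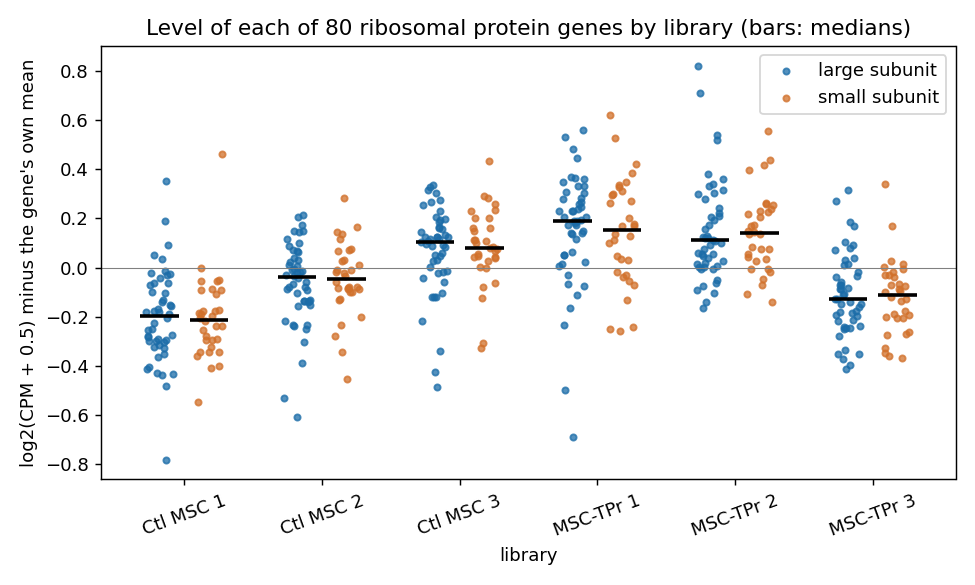
Level of each of the 80 tested members in each library (x axis) relative to the mean of the same gene over the 6 libraries (y axis, log2 units), with bars at the median of each subunit. The medians of the subunits stay close to each other in every library, low in Ctl MSC 1 and MSC-TPr 3 and high in MSC-TPr 1 and 2.

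Over all 6 libraries, no ribosomal protein gene changed between the labels by edgeR's quasi-likelihood test at an adjusted p under 0.05 (Benjamini-Hochberg over 11974 genes). The count was 0 of 80 higher and 0 of 80 lower in MSC-TPr, against 3 genes higher (0.0251%) and 48 lower (0.401%) among all genes. At an unadjusted p under 0.05, 7 members (8.75%) were higher and 0 lower, against 6.81% and 8.23% of all genes. In either direction this count was 7, 2 and 2 without Ctl MSC 1, 2 and 3. It was 6, 3 and 9 without MSC-TPr 1, 2 and 3. Over all genes the count in the same fits was 2843, 927 and 925, and 2529, 1169 and 1547, against 1801 over 6 libraries. DESeq2 called 2 members higher, Rpl22l1 and Rpl30, and 0 lower, against 1.94% and 3.42% of 12934 genes. Every MSC-TPr library was above every Ctl MSC library for 9 members (11.2%, against 10.6% of all genes), and below for 3 (3.75%, against 12.1%). The median log2 fold change of the members was 0.10, with 60 members above 0 and 20 below, against 0.01 for all genes tested. It was 0.10 for each subunit. Leaving out 1 library moved it to between 0.0351 (without Ctl MSC 1) and 0.1875 (without MSC-TPr 3) for the large subunit and between 0.0543 and 0.2078 (without the same libraries) for the small, and 73 of the 80 members lay within 0.5 of 0.

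Without the libraries numbered 1, edgeR called 7 members higher (8.75%, against 23.3% of 12122 genes) and 6 lower (7.5%, against 22.1%). The median of the members was then 0.00, with 40 above 0 and 40 below, at −0.03 for the large and 0.06 for the small subunit. The genes called higher were Rpl22l1, Rpl26, Rpl30, Rpl7l1, Rps2, Rps18 and Rps27l, and those called lower were Rpl17, Rpl22, Rpl23, Rpl35a, Rps20 and Rps23. In this fit the common dispersion, the spread between libraries of a label, was 0.0168, against 0.124 over all 6. Its Ctl MSC libraries, Ctl MSC 2 and 3, were the most alike of any pair within a label. Their counts differed by a chi-square per gene of 4.97, against 52.3 to 200 for the other pairs. The spread behind the p-values of this fit may therefore be technical. The labels and the level of cell division genes cannot be told apart in these 4 libraries.

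**Figure D4:**
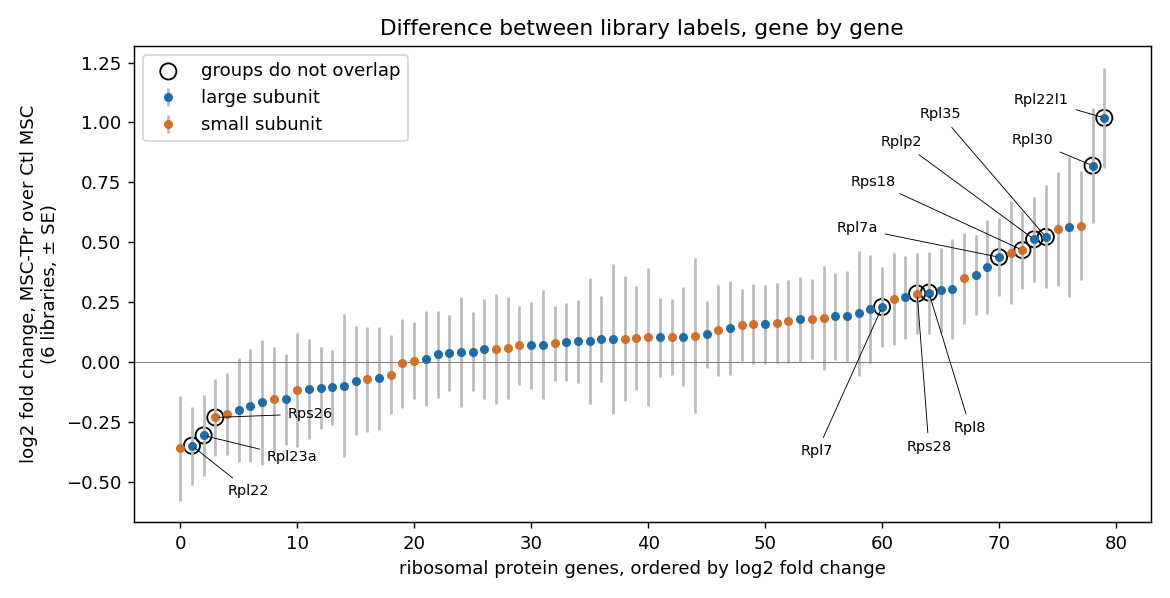
Log2 fold change of MSC-TPr over Ctl MSC for each of the 80 tested members (y axis, 6 libraries, bars are SE), ordered from the lowest to the highest (x axis) and coloured by subunit. Rings mark the 12 members whose groups do not overlap, 9 higher and 3 lower, with Rpl22l1 at the top at 1.02.

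Rpl22l1 had the largest log2 fold change of the members. Its levels were 37.1, 48.8 and 50.6 CPM in Ctl MSCs 1, 2 and 3 against 83.0, 113.8 and 80.02 CPM in MSC-TPr 1, 2 and 3, so that every MSC-TPr library was above every Ctl MSC library, with means of 45.5 ± 7.35 and 92.3 ± 18.7 (SD, n = 3). The log2 fold change was 1.02 ± 0.21 (SE), with an adjusted p of 0.116 by edgeR over 6 libraries and 0.00344 by DESeq2. Without the libraries numbered 1 it was 0.96, with an edgeR adjusted p of 0.00825. The gene lies on chromosome 3 from 28805436 to 28807424 (plus strand, mm10), its exons overlap those of Gm33051 on the opposite strand, and 45.3% of its 100-base stretches occur elsewhere.

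Rpl22, an RNA-binding protein of the large subunit, lay the other way. It had 455.6, 502.3 and 553.3 CPM in Ctl MSCs 1, 2 and 3 against 425.1, 413.7 and 348.6 CPM in MSC-TPr 1, 2 and 3, again without overlap. Its log2 fold change of −0.35 ± 0.16 (SE) did not pass edgeR's test over 6 libraries (adjusted p = 0.379), and without the libraries numbered 1 it was −0.47 with an adjusted p of 0.0369. Rpl22 lies on chromosome 4 from 152325742 to 152334071 (plus strand), overlaps no other exon, and shares no 100-base stretch. The CPM of Rpl22l1 as a percent of the CPM of Rpl22 does not depend on the scaling of a library. It is not corrected for transcript length, which was 525 bases for Rpl22l1 and 2051 for Rpl22. This percent was 8.14%, 9.72% and 9.15% in Ctl MSCs 1, 2 and 3 against 19.5%, 27.5% and 23.0% in MSC-TPr 1, 2 and 3. All MSC-TPr libraries were above all Ctl MSC libraries, and Ctl MSC 1 and MSC-TPr 1 stood with the libraries of their own label. Per kilobase, Rpl22l1 had 70.66, 92.98 and 96.45 CPM in Ctl MSCs 1, 2 and 3, against 222.1, 244.9 and 269.8 for Rpl22. In MSC-TPr 1, 2 and 3, Rpl22l1 had 158.2, 216.7 and 152.4 CPM per kilobase against 207.3, 201.7 and 170 for Rpl22. The log2 ratio differed by 1.35, with p = 0.1 by an exact two-sided permutation test, the smallest p that 3 against 3 libraries allow, and 0.2 adjusted over the 4 pairs tested.

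The other paralogue pairs were examined in the same way, on CPM without a correction for transcript length. Rpl36al, which the naming rule leaves out, was at 35.3%, 26.7% and 26.5% of Rpl36a in Ctl MSCs 1, 2 and 3 against 40.5%, 44.5% and 41.4% in MSC-TPr 1, 2 and 3. These groups also did not overlap (log2 difference 0.52, exact permutation p = 0.1, adjusted 0.2). The difference came from Rpl36al, which had 117.6 to 130.9 CPM in Ctl MSCs against 167.2 to 212.4 in MSC-TPr, while Rpl36a overlapped at 370.7 to 479.3 and 404 to 524.7 CPM. Rpl36al and Rpl36a share 59.0% and 83.6% of their stretches with other genes. Rpl7l1, a paralogue known from ribosome assembly, was at 12.6% to 16.3% of Rpl7 in Ctl MSC and 14.1% to 16.3% in MSC-TPr (log2 difference 0.13, exact permutation p = 0.4, adjusted 0.533), and this difference was 0.066 without Ctl MSC 3 and 0.252 without Ctl MSC 1. Rps27l, known as a p53 target, had 118.5, 67.5 and 69.3 CPM in Ctl MSCs against 72.2, 114.8 and 87.4 in MSC-TPr, and stood far above Rps27, which had 1.88 to 3.31 CPM. Their log2 ratio differed by 0.06 (exact permutation p = 1, adjusted 1), and Rps27, with 98.4% of its stretches shared, makes this ratio uncertain.

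**Figure D5:**
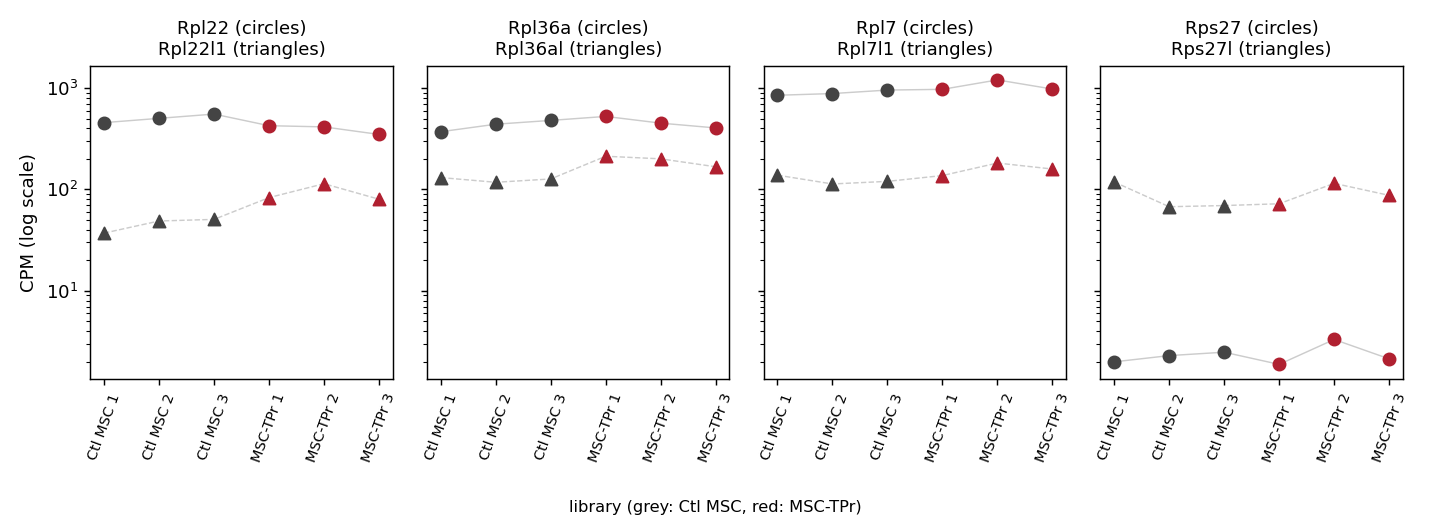
CPM (y axis, log scale) of the members of 4 paralogue pairs in the 6 libraries (x axis; grey, Ctl MSC; red, MSC-TPr), with circles for the first and triangles for the second gene of each pair. Rpl22l1 and Rpl36al lie higher in all MSC-TPr libraries, and Rpl22 lies lower.

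Other members lay higher in every MSC-TPr library without passing edgeR's adjusted test. Rpl30, of the large subunit, had 10.6, 8.01 and 8.27 CPM in Ctl MSCs against 13.5, 19.6 and 14.3 in MSC-TPr, a log2 fold change of 0.82 ± 0.24 (SE) at an edgeR adjusted p of 0.205, on the low level described above. DESeq2 gave it an adjusted p of 0.0496. Rpl35, a protein at the exit of the peptide tunnel, had 674.6, 761 and 836.4 CPM in Ctl MSCs against 1325, 1090 and 849.1 in MSC-TPr, where MSC-TPr 3 lay just above Ctl MSC 3. Of the 100-base stretches of Rpl35, 83.0% occur in other genes, and its exons overlap those of Arpc5l and Wdr38 on the opposite strand. Rplp2, an acidic protein of the stalk, had 412.5, 464.4 and 502.6 CPM in Ctl MSCs against 764.1, 629.9 and 574.3 in MSC-TPr, a log2 fold change of 0.51 ± 0.18 (SE) at an edgeR adjusted p of 0.263. The highest library for Rpl35 and Rplp2 was MSC-TPr 1, and without the libraries numbered 1 their log2 fold changes were 0.28 and 0.32.

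Rps18, of the head of the small subunit, had 775.1, 784 and 872.4 CPM in Ctl MSCs against 1040, 1254 and 1069 in MSC-TPr, a log2 fold change of 0.47 ± 0.16 (SE) at an edgeR adjusted p of 0.263, and 0.49 (adjusted p = 0.0341) without the libraries numbered 1. Rpl7a, of the large subunit, had 879.4, 923.9 and 1000 CPM in Ctl MSCs against 1239, 1392 and 1168 in MSC-TPr (0.44 ± 0.16, adjusted p = 0.283). Rpl8, which lies near the peptidyl transferase centre, Rps28 and Rpl7 completed the 9, with log2 fold changes of 0.29, 0.29 and 0.23. Leaving out 1 library took Rpl7 to 0.126 (without MSC-TPr 2) and Rps28 to 0.186 (without MSC-TPr 1, and 0.114 without both libraries numbered 1), and Rpl8 to 0.194 (without MSC-TPr 2). In Rps18 and Rpl7a the lowest MSC-TPr library was 1040 and 1168 CPM, above the highest Ctl MSC library by more than the range within Ctl MSC. Of the 100-base stretches of Rps18 and Rpl7a, 57.3% and 73.5% also occur in other genes. Exons of Rps18 overlap those of Vps52 on the opposite strand.

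In the other direction, Rpl23a, which lines the exit of the peptide tunnel, had 1200, 1282 and 1396 CPM in Ctl MSCs against 985.7, 1174 and 979.6 in MSC-TPr (−0.30 ± 0.17, SE, edgeR adjusted p = 0.448). Rps26, at the mRNA exit of the small subunit, had 1025, 1111 and 1202 CPM in Ctl MSCs against 936.9, 1021 and 888.5 in MSC-TPr (−0.23 ± 0.16, adjusted p = 0.544). In both genes the nearest libraries of the groups, Ctl MSC 1 and MSC-TPr 2, lay close to each other.

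Some members departed from the common movement of the family. After the median of the members was taken off in each library, the widest range over the libraries was that of Rpl41 (1.42 log2 units), followed by Rpl22l1 (1.28), Rpl30 (1.18), Rpl34 (1.10) and Rps27l (1.09). Rpl41 had 1405, 1003 and 1102 CPM in Ctl MSCs 1, 2 and 3 against 683.7, 1360 and 1239 in MSC-TPr 1, 2 and 3. Rps2 had 2323, 1762 and 1927 CPM in Ctl MSCs against 2322, 3546 and 3058 in MSC-TPr, and 64.7% of its stretches occur in other genes. Rpl41 and Rps27l were highest in Ctl MSC 1, MSC-TPr 2 and MSC-TPr 3, the libraries with cell division genes at 6.71 to 6.87 log2 CPM, and in Rps2 the same libraries led except that MSC-TPr 1 all but equalled Ctl MSC 1. The part of cell division in these levels was not tested. Without the libraries numbered 1, Rps2 had a log2 fold change of 0.84 (edgeR adjusted p = 0.00592) and Rps27l of 0.56 (adjusted p = 0.0287), against 0.57 (adjusted p = 0.314) and 0.10 (adjusted p = 0.895) over 6.

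Of the members called lower without the libraries numbered 1, Rpl22 separated by label over all 6, and others did not. Rpl23 had 1116, 1557 and 1697 CPM in Ctl MSCs 1, 2 and 3 against 1666, 1204 and 1026 in MSC-TPr 1, 2 and 3. Rps20, a protein of the head of the small subunit, had 758.4, 1063 and 1182 CPM in Ctl MSCs against 850.8, 810.9 and 682.1 in MSC-TPr, with the lowest log2 fold change of all members (−0.36 ± 0.22, SE, edgeR adjusted p = 0.493). For Rpl23, Ctl MSC 1 lay within the range of MSC-TPr and MSC-TPr 1 within that of Ctl MSC. Over 6 libraries Rpl17, Rpl35a and Rps23 had log2 fold changes of −0.18, −0.20 and −0.11.

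Rps7, a small subunit protein, had 494.9, 630 and 693.7 CPM in Ctl MSCs against 1112, 867.9 and 690.4 in MSC-TPr, where MSC-TPr 3 lay at the level of Ctl MSC 3 (0.55 ± 0.24, SE, edgeR adjusted p = 0.338). The 38 tested members not named here, 23 of the large and 15 of the small subunit, had log2 fold changes between −0.21 and 0.40, with 32 above 0 and 6 below and the lowest edgeR adjusted p at 0.397. Their levels ran from 449.9 to 2215 CPM per kilobase.

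Members known for roles of their own did not pass the test either. Of the stalk, Rplp0 had 2918 to 3755 CPM in Ctl MSCs against 3004 to 3839 in MSC-TPr (log2 fold change, 0.01 ± 0.20, SE) and Rplp1 had 1081 to 1253 and 933.9 to 1145 CPM (−0.11 ± 0.17, SE), so that of the stalk genes only Rplp2 had groups that do not overlap. Rpl5 and Rpl11, which with the 5S RNA bind Mdm2 and restrain it, had log2 fold changes of 0.09 ± 0.26 and −0.10 ± 0.16 (SE). Rpl5 had 1473, 2205 and 2411 CPM in Ctl MSCs 1, 2 and 3 against 2642, 2064 and 1773 in MSC-TPr 1, 2 and 3, whereas Rpl11 stayed between 595.3 and 720.3 CPM in all 6.

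Rps27a, encoded as a fusion with ubiquitin, had 1245, 1341 and 1495 CPM in Ctl MSCs against 2279, 1849 and 1473 in MSC-TPr (0.46 ± 0.21, SE, edgeR adjusted p = 0.381). Fau, which encodes Rps30 fused to a ubiquitin-like protein, overlapped at 446.9 to 539.1 and 478.9 to 596.8 CPM. Rps6, the substrate of the S6 kinases, had a log2 fold change of −0.15 ± 0.22 (SE). Rps19, a gene of Diamond-Blackfan anaemia, had 0.08 ± 0.16, Rps3, also known from DNA repair, 0.17 ± 0.17, and Rpsa, also known as a laminin receptor, 0.07 ± 0.16. Rpl13a, a large subunit protein also known from translational silencing, had −0.08 ± 0.23. Gnb2l1 (Rack1), the scaffold protein of the small subunit head, which the naming rule also leaves out, had 1508 to 2374 CPM in Ctl MSCs against 2103 to 3121 in MSC-TPr (0.37 ± 0.25, SE). None of these had an edgeR adjusted p under 0.05.

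The genes that build ribosomes were set beside their proteins. Of 67 tested genes of ribosome biogenesis (RNA polymerase I, snoRNP proteins and assembly factors), 0 passed edgeR's adjusted test over 6 libraries, 64 had a log2 fold change above 0, and the median was 0.36, against 0.10 for the ribosomal protein genes and 0.01 for all genes. Every MSC-TPr library was above every Ctl MSC library for 28 of them (41.8%, against 10.6% of all genes), and below for 0. Their mean level was 6.6, 6.4 and 6.43 log2 CPM in Ctl MSC 1 to 3 and 6.64, 7.13 and 6.76 in MSC-TPr 1 to 3. Over 6 libraries the 10 cell division genes had a median log2 fold change of 0.65, with groups that overlapped in all of them. The part of cell division in the shift of the biogenesis genes was not tested. Polr1b, a subunit of RNA polymerase I, had 57.6, 48.2 and 48.4 CPM in Ctl MSCs against 74.4, 124.6 and 92.2 in MSC-TPr (log2 fold change, 0.92 ± 0.22, SE, edgeR adjusted p = 0.157). Nop10, of the box H/ACA snoRNPs, had 42.0, 36.1 and 42.3 CPM in Ctl MSCs against 82.8, 78.1 and 57.5 in MSC-TPr (0.86 ± 0.19, adjusted p = 0.127), and Bccip had 0.82 ± 0.25 (adjusted p = 0.214). Without the libraries numbered 1, 38 of the 67 were called higher and 0 lower (23.3% and 22.1% of all genes), with a median of 0.56, where the ribosomal protein genes had 7 higher, 6 lower and a median of 0.00. In that fit the labels and the level of cell division genes cannot be told apart, which also holds for the lists below. These lists were written with earlier results of these data known.

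Of 24 tested genes outside the family whose mRNAs carry a TOP motif, such as elongation factors, 0 passed the adjusted test over 6 libraries, and the median log2 fold change was 0.12. The groups did not overlap in 4 of them, with 4 higher in MSC-TPr (16.7%, against 10.6% of all genes) and 0 lower (against 12.1%). Among the 4 were Snhg1, a snoRNA host gene (0.58 ± 0.21, SE, edgeR adjusted p = 0.277), Cct4, a subunit of the CCT chaperonin (0.57 ± 0.18, adjusted p = 0.228) and Eef1g (0.43 ± 0.16, adjusted p = 0.283). Without the libraries numbered 1, 4 were called higher and 0 lower, where 23.3% and 22.1% of all genes were called.

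Of 25 tested genes of growth control, 0 passed the adjusted test over 6 libraries, with a median of 0.07. The groups did not overlap in 8, with 6 higher and 2 lower, beside 10.6% and 12.1% of all genes. Yy1, the factor that binds the YY1 motif, had 61.1, 58.1 and 59.2 CPM in Ctl MSCs against 100.7, 88.7 and 85.9 in MSC-TPr (0.63 ± 0.14, SE, edgeR adjusted p = 0.127). Rheb, which activates mTOR, had 0.48 ± 0.21 (adjusted p = 0.337) and Myc, a transcription factor that drives ribosome production, had 0.45 ± 0.21 (adjusted p = 0.374). Mtor itself had 56.4, 76.2 and 63.5 CPM in Ctl MSCs against 52.4, 30.8 and 51.5 in MSC-TPr (−0.54 ± 0.25, adjusted p = 0.369), and Rps6kb1, its S6 kinase target, had −0.33 ± 0.16 (adjusted p = 0.385). Without the libraries numbered 1, 3 were called higher and 6 lower, beside the same 23.3% and 22.1% of all genes.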

How the data were processed

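The polyadenylated RNA of 3 libraries per group was prepared with a KAPA stranded kit and sequenced from both ends. Per the labels and the submitters' processing notes, the authors used CASAVA 1.8.2, Trimmomatic 0.35 and TopHat2 2.1.0, and they counted reads on genes of mm10 with Htseq-count. The deposited values are raw counts without normalization. The strand setting and annotation of the counting are not given in the sources used here. Rows of no gene (13.8% to 20.8% of reads) were left out.

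The tests were run with edgeR 4.0.16 under R 4.3.3 (TMM, filterByExpr, quasi-likelihood test, group as the only term, Benjamini-Hochberg over 11974 genes, threshold 0.05), and with DESeq2 1.42.0 as an alternative. The SE is the size of the log2 fold change divided by the square root of F. Ratios of paralogues used log2(CPM + 0.5). The fits of edgeR and of DESeq2 were tested on simulated data with 200 genes changed 4-fold. At a dispersion of 0.1, edgeR recovered 190 of them with 10 false calls, and DESeq2 recovered 189 with 31 false calls. At a dispersion of 0.01, edgeR recovered 196 with 12 false calls, and DESeq2 recovered 195 with 14. A 4-fold change is larger than that of any member, whose highest log2 fold change was 1.02. The simulation therefore does not show how well changes of the members' size would be found. Gene models came from GENCODE M21 (GRCm38) and start regions from RefSeq (GRCm38.p6). Tables and figures were made with Python 3.11.15, pandas 2.3.3 and matplotlib 3.10.9. Replicate numbers from the labels did not pair the libraries (correlations of −0.765 to −0.594), and no library was a copy of another. Ctl MSC 2 and 3 were the closest pair within a label, with a chi-square per gene of 4.97.

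Named genes were up to 8 members per direction with the largest log2 fold change among those whose groups do not overlap, the 6 highest and 6 lowest members per kilobase, the paralogue pairs, members with known roles of their own, and up to 3 genes per list and direction. Rps15a, Rps7, Rps20, Rpl17, Rpl23, Rpl35a, Rps23 and the pseudogene row Rpl34-ps1 were named after their values were seen. Of the genes this rule names, 1 is not reported here. Members and lists were chosen with earlier results of these data known.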

Additional observations from a re-analysis of the deposited data

How the results depend on the processing

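Over all 6 libraries, the counts of ribosomal protein genes called with edgeR were 0 higher and 0 lower under RLE and upper quartile normalization, without a filter on low counts, with a log2 fold change of at least 0.5, with the replicate number as a block, and without each library in turn (0 to 0). Among all genes, 108, 0 and 0 were called without Ctl MSC 1, 2 and 3, and 44, 1 and 0 without MSC-TPr 1, 2 and 3. A fit that calls almost no gene cannot show whether the members differ. DESeq2 called 2 higher, and the fit without the libraries numbered 1 called 7 higher and 6 lower. The block gave 0 calls among all genes and 776 genes at an unadjusted p under 0.05, 1 of them a ribosomal protein gene against 7 without the block, and changed no call of a member. The difference between labels in large minus small subunit level was 0.019, and it was 0.0056 with pseudogene rows added and −0.0481 as the log2 ratio of summed counts. The difference in the share of reads was 0.259 percentage points, −0.168 to 0.747 without each library in turn. Without 1 library, the log2 ratio difference of Rps27l and Rps27 ran from −0.120 to 0.393, and the log2 fold changes ran from −0.0875 to 0.421 for Rps27l, −0.164 to 0.267 for Rps27 and −0.0075 to 0.188 for Rpl36a. Without both libraries numbered 1 these values were 0.412, 0.565, 0.176 and −0.103. The causes were not tested. Over the alternatives for the log2 fold changes of 16 named members, 178 values kept their direction and side of the threshold, 8 passed it in addition and 6 changed sign. Upper quartile scaling moved the median of all genes to −0.03. With 3 libraries per group, exact tests cannot go below 0.1, and low counts limit Rps27, Rpl26, Rpl34 and Rpl30.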
